A study of Mus musculus with 3 samples.

Results

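Intermediate filament genes were followed in mouse CAD cells, a catecholaminergic neuroblastoma line, after RNA interference against polypyrimidine tract binding proteins. The 7 genes are Nefl, Nefm, Nefh, Ina, Prph, Vim and Nes, taken by name from the 26700 genes of the expression table. Each symbol matched 1 gene cluster, and all 7 had reads in all 3 libraries. One library came from cells given siRNAs against Ptbp1 and Ptbp2, one from cells given siRNAs against Ptbp1, and one from cells given control siRNAs. All cells were of the same line and were transfected with lipid reagent, and polyadenylated RNA was taken 72 h later and read as 36-base paired ends. With 1 library per group no difference has a replicate check and no p-value is given, so every value describes these libraries. In bulk RNA, a change in the number of cells of a kind and a change in RNA per cell cannot be told apart.

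Intermediate filaments are rope-like polymers of coiled-coil proteins that give cells mechanical strength. In neurons the light, medium and heavy neurofilament proteins (Nefl, Nefm, Nefh) assemble with alpha-internexin (Ina) or, in peripheral neurons, peripherin (Prph), and they set axon calibre. The heavy and medium subunits do not form filaments alone and need a partner such as the light subunit or alpha-internexin. Vimentin (Vim) is the filament protein of mesenchymal and many immature cells, and nestin (Nes), best known from neural progenitors, co-assembles with it. The Ptbp1 product represses splicing by binding pyrimidine-rich RNA and is widespread outside neurons, and the Ptbp2 product is its close relative in neurons.

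Ptbp1 had 1516 reads after both siRNAs, 1486 after Ptbp1 siRNA and 7191 in the control library. Ptbp2 had 633 reads after both siRNAs, 3044 after Ptbp1 siRNA and 784 in the control, so that Ptbp1 was low in both knockdown libraries. Ptbp2 was 1.16-fold lower after both siRNAs than in the control, and higher than control by 1.78 (log2) after Ptbp1 siRNA. The library with both siRNAs held 14242495 reads, that with Ptbp1 siRNA 16899549 and the control 16011466. In them 1 CPM (read value over scaled library size) stood for 14.5 reads after both siRNAs, 17.2 after Ptbp1 siRNA and 15.5 in the control. All 10 noradrenergic neuroblast markers reached 1 CPM, among them Th and Dbh, of catecholamine synthesis, so the labelled cell line showed its defining genes. Of these 10, Dbh and Phox2a were called higher (as defined below) with both siRNAs against control, where 3.79% of all genes compared were called. Their CPM ratios were 2.32 and 2.06, and their part in the results below was not tested. For each pair of libraries, genes with 1 CPM or more in either of them entered the comparison and are called tested below. A called gene had a difference in log2(CPM + 1) of 1 or more in size, and a 95% counting interval of the CPM ratio that left out 1. That size is close to 2-fold in CPM at high levels and more than 2-fold at low ones. The interval covers counting error only. Reads were amplified without molecular identifiers and need not be separate molecules, whether the mates of a pair were counted singly is not stated, and the spread between cultures is unknown.

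The series concerns intron retention, and PTB proteins act near splice sites, so the ends of the introns of these genes are shown first. In the mouse GENCODE annotation on NCBIM37 (the mm9 build), the last 60 bases of every intron of the longest coding transcript were searched on the transcript's strand for TCTT and CTCTCT, pyrimidine motifs that PTB is known to bind. For Nefm the transcript that runs over the exons of Nefl was set aside and the longest of the others used. Such a motif lay in 17 of the 28 introns of the 7 genes, which is near the 57.9% found among 195264 distinct intron ends of all coding transcripts. It lay in 3 of 3 introns of Nefl, 2 of 2 of Nefm, 1 of 3 of Nefh, 1 of 2 of Ina, 3 of 7 of Prph, 6 of 8 of Vim and 1 of 3 of Nes. The motif windows of Nefl and Ina are not printed. For the 5 other genes, the intron end with the most motif bases is printed 5′ to 3′, ending at the splice site. Motifs are in capitals. These letters are a description of the windows, and the expression table gives gene totals that do not separate introns from exons.
Vim, intron 6, chr2:13502207-13502266, plus strand: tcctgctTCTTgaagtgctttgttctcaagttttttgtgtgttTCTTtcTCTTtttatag
Nefm, intron 2, chr14:68739442-68739501, minus strand: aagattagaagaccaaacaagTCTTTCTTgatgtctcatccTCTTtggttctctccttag
Prph, intron 6, chr15:98888187-98888246, plus strand: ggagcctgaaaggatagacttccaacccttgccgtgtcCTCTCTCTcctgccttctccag
Nefh, intron 2, chr11:4843979-4844038, minus strand: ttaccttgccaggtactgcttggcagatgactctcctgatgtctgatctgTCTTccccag
Nes, intron 3, chr3:87779283-87779342, plus strand: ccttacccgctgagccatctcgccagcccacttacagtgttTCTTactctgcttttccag
Pyrimidines made up 73.3% of the Vim window, 60% of that of Nefm, 63.3% of those of Prph and Nefh and 70% of that of Nes. The median over all introns was 58.3%, but these windows were picked for motifs made of pyrimidines, which favours higher values. By gene, the median over its introns was 63.3% for Vim and Nefh, 61.7% for Prph and 60% for Nes. It was 58.3% for Nefl, 53.4% for Ina and 52.5% for Nefm. Vim also had the most pyrimidine-rich window of the 28, the end of its intron 7, at 76.7%.

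Levels of different genes are compared per length, as CPM per kb of cluster. In the control library Prph stood at 723 CPM per kb and Vim at 642, and both ranked among the first 42 of 23317 genes with clusters of at least 200 bases. Ina followed at 99.0 CPM per kb, Nefh at 43.4 and Nes at 9.80. Nefm and Nefl were the lowest, at 1.14 and 0.614 CPM per kb, from 38 and 19 reads. The order of the 7 genes was the same in the other libraries, and neighbours in it differed beyond their counting intervals, except Nefm and Nefl in the Ptbp1 siRNA and control libraries. Per length, RNA for the heavy subunit was 239 times that for the light subunit after both siRNAs. It was 72.0 times after Ptbp1 siRNA and 70.7 times in the control. These multiples are rough, as Nefl had 10, 31 and 19 reads in those libraries. After both siRNAs the counting interval of Nefl ran from 0.166 to 0.635 CPM per kb. Most filament RNA of these cells was of peripherin and vimentin, with alpha-internexin above the heavy neurofilament subunit.

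**Figure D1:**
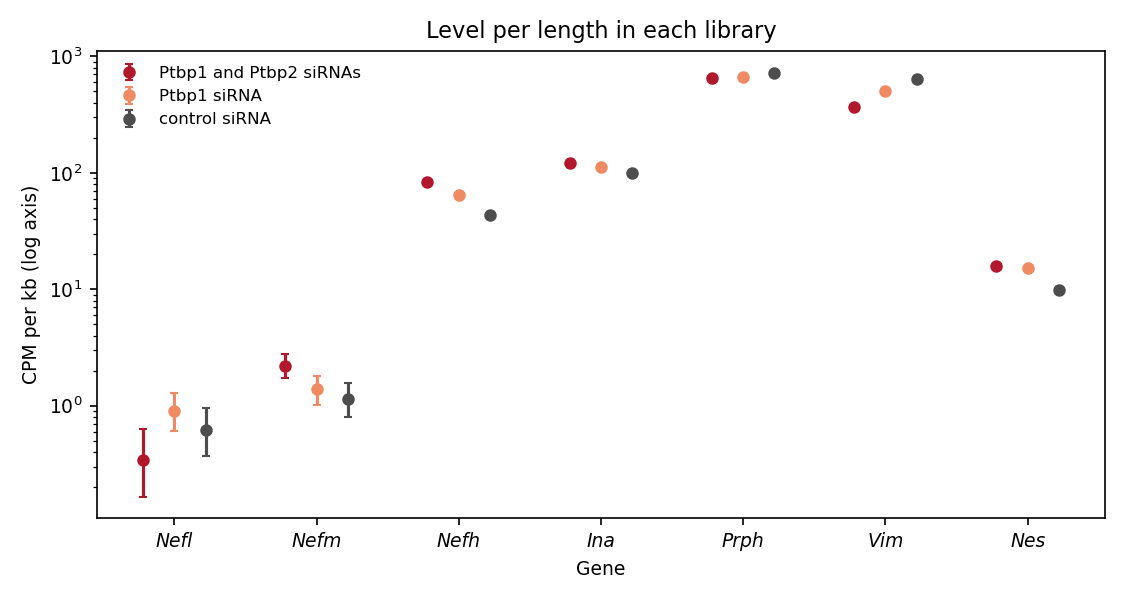
Level of each gene in CPM per kb on a log axis, 1 point per library (left to right: Ptbp1 and Ptbp2 siRNAs, Ptbp1 siRNA, control siRNA), with 95% Poisson counting intervals. Prph and Vim lie at 370 CPM per kb or more in every library, and the points of Nefl and Nefm lie at 2.21 or less.

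Among the neurofilament subunits, Nefh and Nefm were higher with both siRNAs than in control cells, Nefh on far more reads. Nefh, whose product carries the long phosphorylated tail of the heavy subunit (chromosome 11, positions 4838760 to 4848068), had 4263 reads after both siRNAs, 3978 after Ptbp1 siRNA and 2394 in the control. Its level was 295 CPM after both siRNAs, 231 after Ptbp1 siRNA and 155 in the control. The control was the lowest and the library with both siRNAs the highest. The CPM ratio of Nefh to control was 1.90 after both siRNAs (counting interval 1.81 to 2.00) and 1.49 after Ptbp1 siRNA (1.42 to 1.57). Between the knockdown libraries it was 1.27-fold higher after both (1.22 to 1.33). Its log2 differences of 0.92, 0.58 and 0.35 all stayed below the size for a call. In the comparison of both siRNAs with control, 210 of 13304 tested genes (1.58%) had a difference at least as high.

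Nefm, the medium subunit gene (chromosome 14, 68737603 to 68743062), had 69 reads after both siRNAs, 51 after Ptbp1 siRNA and 38 in the control, or 4.77, 2.96 and 2.46 CPM. The library with both siRNAs was again the highest. It was 1.94-fold above the control (1.29 to 2.96), and 1.61-fold above the Ptbp1 siRNA library (1.10 to 2.36). After Ptbp1 siRNA the ratio to control was 1.21, with an interval that held 1 (0.777 to 1.89). Nefl, the light subunit gene, lies beside Nefm on chromosome 14 (68701942 to 68705795). It had 10 reads after both siRNAs, 31 after Ptbp1 siRNA and 19 in the control, or 0.691, 1.80 and 1.23 CPM. The ratio of both siRNAs to Ptbp1 siRNA was 0.384 (0.168 to 0.803), while the intervals of both ratios to control held 1. Against control, then, no direction could be given to Nefl at this depth, while between the knockdown libraries it was lower after both siRNAs and Nefm was higher. The opposite values rest on 10 and 31 reads of Nefl. With a pseudocount of 0.1 CPM in place of 1, Nefl was called lower in this pair, at -1.27.

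The gene models limit the pair on chromosome 14 in particular. The cluster of Nefl covered 59.2% of its annotated exon bases, and 54.3% of the exon bases within its span are also annotated to a transcript of Nefm on the opposite strand. The cluster of Nefm held 2153 bases of 5782 annotated ones, of which no base within its span is shared with another gene. The protocol in the labels describes no step that marks strand, so reads of the overlapping exons cannot be assigned to either gene. The Nefh, Prph, Vim and Nes clusters covered between 89.3% and 99.8% of their exon bases and overlapped no other gene's exons. At most 0.485% of the 32-base windows in the exons of any of the 7 genes recur elsewhere in the genome.

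Ina, the alpha-internexin gene (chromosome 19, 47089645 to 47098837), had 3173 reads after both siRNAs, 3460 after Ptbp1 siRNA and 2760 in the control. Its level was 219 CPM after both siRNAs, 201 after Ptbp1 siRNA and 178 in the control, which was again the lowest library. The ratio to control was 1.23 after both siRNAs (1.17 to 1.29) and 1.13 after Ptbp1 siRNA (1.07 to 1.19). Of the tested genes 21.6% and 24.1% had differences at least as high in these pairs. Its cluster covered 55.6% of the annotated exon bases.

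Prph, the peripherin gene (chromosome 15, 98885639 to 98889410), was the most abundant of the 7 per length and differed little. It had 17356 reads after both siRNAs, 21020 after Ptbp1 siRNA and 20496 in the control, or 1199, 1221 and 1325 CPM. It was 1.11-fold lower after both siRNAs against control (1.08 to 1.13) and 1.08-fold lower after Ptbp1 siRNA (1.06 to 1.11). Between both siRNAs and Ptbp1 siRNA it was 1.02-fold lower, with an interval that held 1 (0.998 to 1.04). By level per length Prph ranked 30th after both siRNAs, 32nd after Ptbp1 siRNA and 35th in the control.

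Vim, the vimentin gene (chromosome 2, 13495580 to 13504435), had 11660 reads after both siRNAs, 18936 after Ptbp1 siRNA and 21605 in the control. Its level was 806 CPM after both siRNAs, 1100 after Ptbp1 siRNA and 1397 in the control, and here the control was the highest and the library with both siRNAs the lowest. Vim was 1.73-fold lower after both siRNAs against control (1.70 to 1.77) and 1.27-fold lower after Ptbp1 siRNA (1.25 to 1.29). It was 1.37-fold lower after both siRNAs than after Ptbp1 siRNA (1.34 to 1.40). Of the tested genes 5.06% had a difference from control as low after both siRNAs, and 12.1% after Ptbp1 siRNA.

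Nes, the nestin gene (chromosome 3, 87775016 to 87784374), did not go with its partner Vim. It had 1453 reads after both siRNAs, 1663 after Ptbp1 siRNA and 970 in the control, or 100, 96.6 and 62.7 CPM. Both knockdown libraries were above the control. The ratio to control was 1.60 after both siRNAs (1.48 to 1.74) and 1.54 after Ptbp1 siRNA (1.42 to 1.67), and the interval between the knockdown libraries held 1 (0.967 to 1.12). After Ptbp1 siRNA a difference of 0.62 or higher was held by 319 of 13239 tested genes (2.41%).

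**Figure D2:**
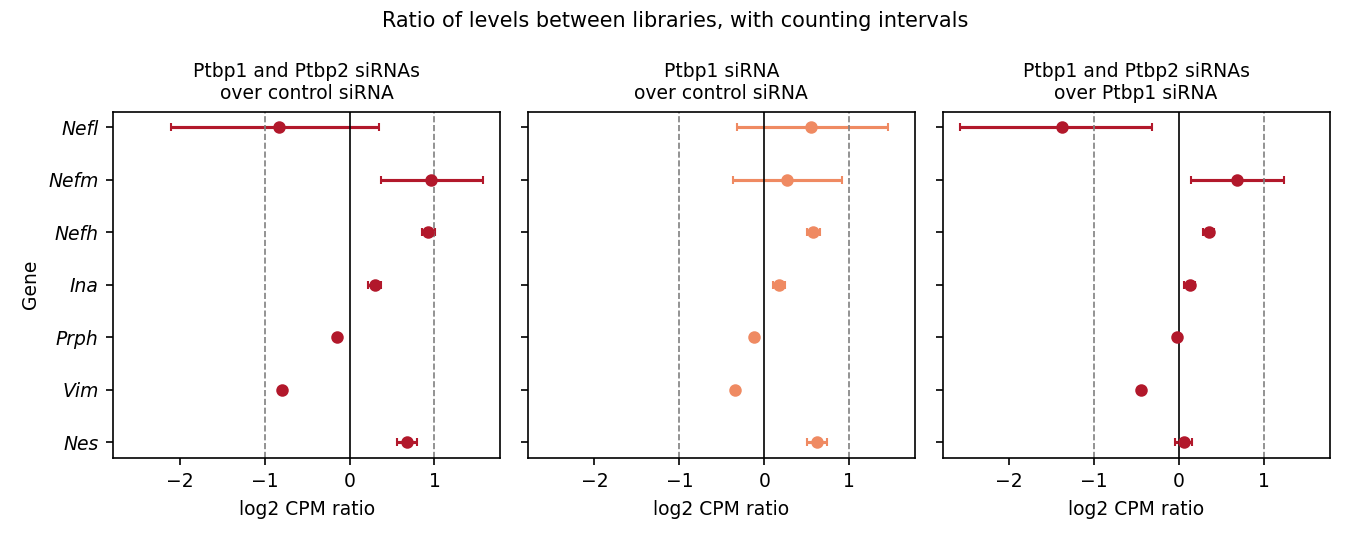
CPM ratio of each gene on a log2 axis in 3 pairs of libraries, with 95% counting intervals; dashed lines mark 2-fold. Nefh and Nes lie right of 0 and Vim left of it in both comparisons with control, and the only point past 2-fold is Nefl in both siRNAs over Ptbp1 siRNA.

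Ptbp1 and Ptbp2 siRNAs against control siRNA gave log2 differences of the 7 genes between -0.79 (Vim) and 0.92 (Nefh). None of the 7 was called, while 3.79% of 13304 tested genes were. The counting interval lay above 1 for 4 of the 7 (Nefm, Nefh, Ina, Nes) and below 1 for 2 (Prph, Vim), beside 28.9% and 32.3% of all tested genes. Intervals narrow as reads rise, and the tested genes go down to 1 CPM. Such shares, here and below, were not matched for read depth. The median difference of the 7 was 0.30, and that of all tested genes -0.01. The median hides that the genes lay on both sides of 0.

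In Ptbp1 siRNA against control siRNA the 7 genes lay between -0.34 (Vim) and 0.62 (Nes), with a median of 0.20 beside -0.01 for all genes. None was called, and 0.733% of 13239 tested genes were. The interval lay above 1 for Nefh, Ina and Nes and below 1 for Prph and Vim, 3 and 2 of 7, beside 21.0% and 26.5% of all tested genes. Both comparisons share the control library, so a high or low value in it enters both.

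Ptbp1 and Ptbp2 siRNAs against Ptbp1 siRNA compares libraries that differ in the Ptbp2 siRNAs. Ptbp2 stood at 43.7 CPM after both siRNAs, 177 after Ptbp1 siRNA and 50.7 in the control. The pair thus sets a near-control level of Ptbp2 against a raised one. Ptbp1 was also 1.21-fold higher after both siRNAs than after Ptbp1 siRNA (1.13 to 1.30). The 7 genes had a median of 0.05 beside 0.00 for all genes, and none was called, beside 0.436% of 13299 genes. Nefl was 2.61-fold lower in CPM but at -0.73 in log2(CPM + 1), below the size for a call. The interval lay above 1 for Nefm, Nefh and Ina and below 1 for Nefl and Vim, beside 22.3% and 22.5% of all genes. Scaling by library totals, in place of trimmed means, gave a call split of 193 higher and 282 lower genes for both siRNAs against control, against 140 and 364, and of 50 and 47 for Ptbp1 siRNA, against 36 and 61. The direction of each of the 7 genes was the same under both scalings, but with library totals Prph was at -0.07 in place of -0.14 after both siRNAs, and at -0.04 in place of -0.12 after Ptbp1 siRNA, where Ina was at 0.25 in place of 0.17.

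Within a library, ratios between genes do not depend on how the library is scaled. Vim stood at 0.566 of Prph per length after both siRNAs, 0.759 after Ptbp1 siRNA and 0.888 in the control. The Vim to Prph ratio was thus 1.57-fold lower after both siRNAs, against control (counting interval 1.52 to 1.62). Nefh stood at 0.679 of Ina after both siRNAs, 0.581 after Ptbp1 siRNA and 0.438 in the control, and the ratio was 1.55-fold higher after both siRNAs (1.44 to 1.66). In the same comparison the ratio of Nefh to Vim was 3.30-fold higher (3.12 to 3.49), and that of Nes to Vim 2.78-fold higher (2.55 to 3.02). These pairs of genes were picked after their values were seen.

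Expressed as shares of the summed per-length level of the 7 genes, Vim made up 29.7% after both siRNAs, 37.0% after Ptbp1 siRNA and 42.3% in the control. Prph made up 52.5% after both siRNAs, 48.8% after Ptbp1 siRNA and 47.6% in the control, although its own level was lowest after both siRNAs. Ina held 9.75% after both siRNAs, 8.16% after Ptbp1 siRNA and 6.51% in the control. Nefh held 6.62% after both siRNAs, 4.74% after Ptbp1 siRNA and 2.86% in the control. So the shares of the neuronal filament genes other than Nefl were largest, and that of Vim smallest, after both siRNAs. Nes held 1.26% after both siRNAs, 1.10% after Ptbp1 siRNA and 0.645% in the control, and Nefm and Nefl together were below 0.21% in each library. Within the 4 neurofilament genes alone, Nefh had 39.9% after both siRNAs, 36.3% after Ptbp1 siRNA and 30.1% in the control, and nearly all of the remainder was Ina. The sum of the 7 genes was 2624 CPM after both siRNAs, 2855 after Ptbp1 siRNA and 3121 in the control.

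**Figure D3:**
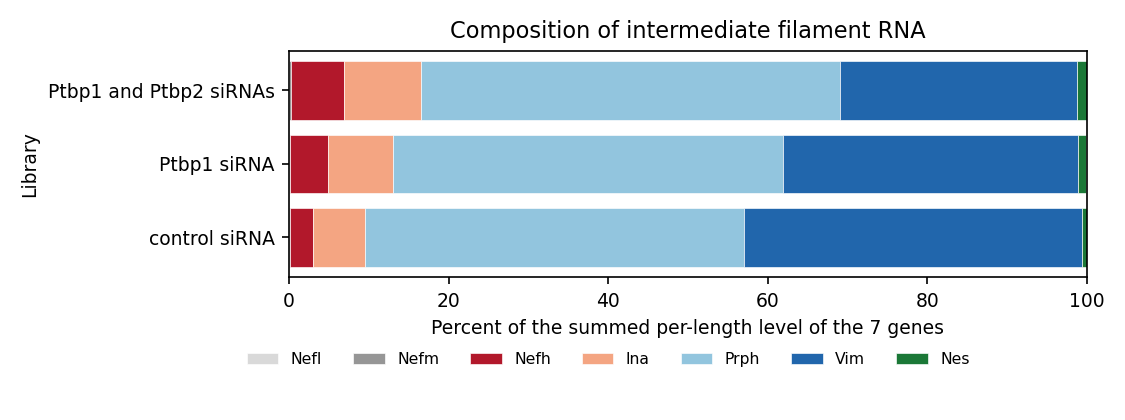
Share of each gene in the summed level per length of the 7 genes, 1 bar per library, from 0 to 100%. The Vim segment is 29.7% after both siRNAs, 37.0% after Ptbp1 siRNA and 42.3% in the control, and the Nefh and Ina segments are widest after both siRNAs.

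For both siRNAs against control, 3.80% of tested genes had a difference at least as high as Nefm and 4.86% as high as Nes. Values as far as those of Nefl, Ina and Prph, in the direction of each, were held by 18.3%, 21.6% and 37.5%. The genes closest to each member in both differences from control were sought among 8365 genes with at least 100 reads in every library, by Euclidean distance over the 2 log2 differences of 3 libraries. Pno1, a ribosome assembly factor gene, and Ppat, of purine synthesis, were closest to Nefh, at distances of 0.0078 and 0.019. Epb4.1l2, of the protein 4.1 family of membrane skeleton proteins, and Itga5, the fibronectin receptor subunit, were closest to Vim, at 0.010 and 0.017. Fez1, of axonal transport, and Tspan4, a tetraspanin gene, were closest to Nes, at 0.023 and 0.025. Ina was nearest to Znhit1 and Otud4 and Prph to Rcbtb2 and Mfsd4, in crowded regions with 531 and 706 genes within 0.1, against 36 for Nefh, 63 for Vim and 29 for Nes. The measure rests on 3 libraries, and both differences share the control.

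**Figure D4:**
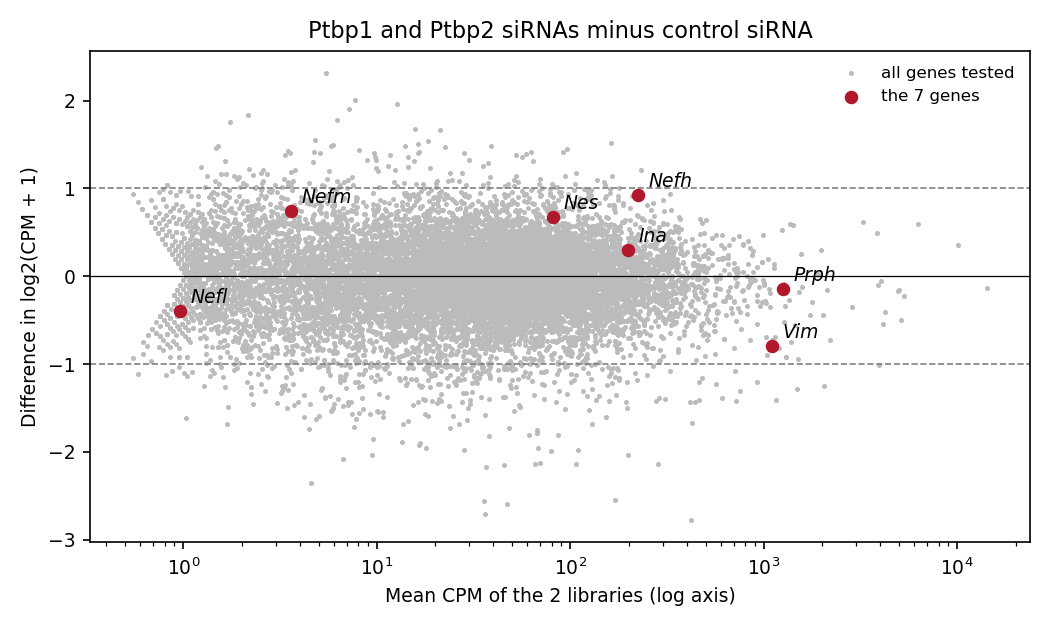
Difference in log2(CPM + 1) between the library with both siRNAs and the control for all 13304 tested genes (grey), against mean CPM on a log axis. The 7 genes are in red, and dashed lines mark the size for a call. Nefh lies at 0.92, Vim at -0.79 and Prph at -0.14.

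Other filament and filament-linked genes were read from lists. Of 22 other intermediate filament genes 19 were found and 6 reached 1 CPM: the lamin genes Lmna, Lmnb1 and Lmnb2, Krt8, Des and Sync. None was called, beside 3.79% of all tested genes after both siRNAs. Their median there was -0.16, beside -0.01 for all tested genes. Lmna, which encodes the A-type nuclear lamins, had 2018 reads after both siRNAs, 2914 after Ptbp1 siRNA and 3275 in the control, and was 1.52-fold lower after both siRNAs against control (1.44 to 1.61). Lmnb1 and Lmnb2, of the B-type lamins, were at 0.09 and -0.18. Krt8, a keratin gene of simple epithelia, was at -0.87 after both siRNAs, with 180 reads there, 339 after Ptbp1 siRNA and 364 in the control, but 66.6% of its 32-base exon windows recur elsewhere in the genome, so its reads are uncertain. Gfap, the astrocyte filament gene, had 1 read after both siRNAs, 2 after Ptbp1 siRNA and 0 in the control, under the limit of 3 reads.

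Of 10 cytolinker and plakin genes, whose products tie filaments to other structures, 6 were tested. Evpl, the envoplakin gene, was the 1 called, beside 3.79% of all tested genes, with 51 reads after both siRNAs, 65 after Ptbp1 siRNA and 16 in the control, and a CPM 3.41 times that of the control after both siRNAs (1.91 to 6.40). It was called in Ptbp1 siRNA against control as well, at 1.23, beside 0.733% of all tested genes. Plec, the plectin gene, was at -0.37, and Pkp2, a plakophilin gene, at -0.39. The list's median was -0.19 after both siRNAs and 0.01 after Ptbp1 siRNA.

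Genes for kinases and turnover factors of neurofilaments were all 15 measured, and none was called, beside 3.79% of all tested genes after both siRNAs. After both siRNAs the interval lay above 1 for 8 and below 1 for 4 of the 15, beside 28.9% and 32.3% of all tested genes. These shares were not matched for read depth, on which the width of an interval depends. The median was 0.14 beside -0.01. Cdk5r1, the p35 activator of the neurofilament kinase Cdk5, had 193 reads after both siRNAs, 206 after Ptbp1 siRNA and 121 in the control and was 1.70-fold above control after both siRNAs (1.35 to 2.16). Mapk10, a neuronal JNK gene, was at 0.61 and Trim2, a ubiquitin ligase gene whose product targets the light subunit, at 0.59. Of 12 neuronal differentiation genes 10 were tested and none was called, beside 3.79% of all tested genes after both siRNAs. Their median there was -0.08, beside -0.01 for all tested genes. Gap43, of growth cones, was at 0.75, while Mapt, the tau gene, was at -0.63 and Stmn2, a stathmin gene, at -0.48. Members of this list lay on both sides of 0, 3 above and 7 below.

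**Figure D5:**
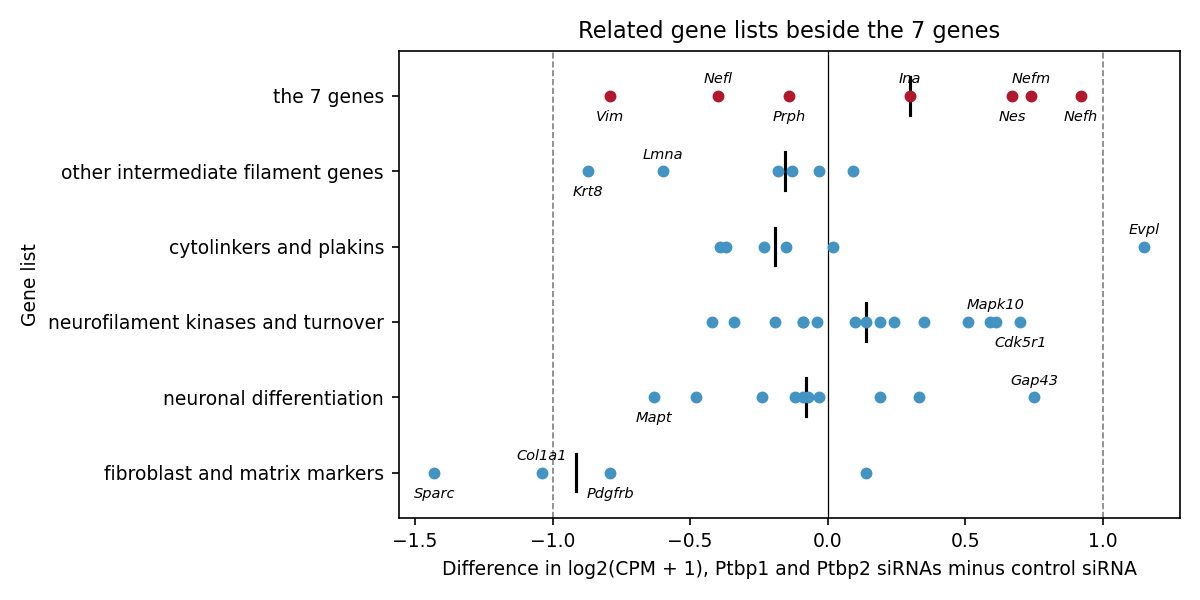
Difference in log2(CPM + 1), Ptbp1 and Ptbp2 siRNAs minus control siRNA, 1 point per tested gene, for the 7 genes and 5 related lists. Black bars are list medians and dashed lines mark the size for a call. The medians are 0.30 for the 7 genes and -0.92 for the 4 tested fibroblast and matrix markers.

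Markers of other cell types were set beside Vim and Nes, which such cells also express. Of 8 fibroblast and matrix markers 4 reached 1 CPM, and their summed level was 112 CPM after both siRNAs, 177 after Ptbp1 siRNA and 297 in the control, mostly from Sparc. Sparc, a matrix-associated glycoprotein gene, was 2.70-fold lower after both siRNAs against control (2.55 to 2.87), and Col1a1, a collagen gene, 2.38-fold lower (1.69 to 3.40). These 2 of the 4 tested were called, beside 3.79% of all tested genes. Pdgfrb and Pdgfra were tested and not called. Against control, their CPM ratios after both siRNAs were 0.492 (0.320 to 0.744) and 1.175 (0.612 to 2.27). The markers Col3a1, Lum and Dcn had at most 6 reads in any library, and Col1a2 was at 0. The 7 neural progenitor markers summed to 84.2 CPM after both siRNAs, 105 after Ptbp1 siRNA and 123 in the control, where Nes was lowest. Among them Prom1 was called lower, by 3.09-fold after both siRNAs (2.68 to 3.56), as 1 of 4 tested, beside 3.79% of all tested genes. Prom1 had 17.8 CPM after both siRNAs and 54.8 in the control, most of the difference in the sum. Msi1, an RNA-binding protein gene of progenitors, had 45.5 CPM after both siRNAs and 42.2 in the control. Sox1 and Sox2 were at 0 reads in all libraries. Astrocyte markers summed to 32.5 CPM after both siRNAs, 48.6 after Ptbp1 siRNA and 53.4 in the control, mostly from Fgfr3, with 5 of 8 at 3 reads or fewer everywhere. Endothelial markers summed to 11.9 CPM after both siRNAs, 16.8 after Ptbp1 siRNA and 22.1 in the control, mostly from Pecam1. Muscle markers summed to 16.8, 16.8 and 14.9 CPM in those libraries, and Schwann and oligodendrocyte markers to 13.7, 18.3 and 19.0. The part of other cell types in the values of Vim and Nes was not tested.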

How the data were processed

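Per the labels' protocols, polyadenylated RNA was fragmented, copied with random primers, size-selected, amplified over 15 PCR cycles and sequenced. The authors deposited 1 table, on mm9 per the file header, with a whole-number read value and an RPKM value per gene cluster, made from the reads of each library before deposit. The unit of both deposited columns is recorded as a score and not as a count, because 38 of 27389 clusters hold negative values, down to -65, and what was subtracted is not stated. The aligner and counting tool are not given in the sources used here. Left out were clusters with a negative value or no length, and of several rows per symbol the highest mean was kept. Library sizes were scaled by trimmed means of log ratios (30% and 5% trimmed; factors 1.02, 1.02 and 0.966 for both siRNAs, Ptbp1 siRNA and control) with numpy 2.4.6. All intervals and the limit of 3 reads nevertheless use the net read values as counts, as planned, which is an approximation. Ratios carry exact conditional binomial 95% intervals (scipy 1.17.1), and levels Poisson ones. The calling step was tested on simulated data. The genes named were the 7 members, called and up to 3 largest members of each list, and 2 nearest genes per member; any others (Lmnb1, Des, Sync, Gfap, Krt18 and markers) were named after their values were seen. Members and lists were chosen with earlier results of these data known. The alternatives tried were pseudocounts, filters, scalings, fold limits, summed rows and the deposited RPKM.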

Additional observations from a re-analysis of the deposited data

How the results depend on the processing

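No paired analysis was possible because each group had 1 library, and for the same reason no library could be left out. The sign of each of the 7 genes' differences held in 9 alternatives. Of these, the filters on low values and the pseudocounts could not move it, as the same value is added to both libraries. Summed rows could do so only through the library scaling, as each of the 7 symbols had 1 cluster. For both siRNAs against control, Nefh lay between 0.91 and 1.00 and Vim between -0.79 and -0.72. The counts of called members were 0. At a 1.5-fold limit they became 1 (Nes) for Ptbp1 siRNA against control and 4 (Nefm, Nefh, Vim and Nes) for both against control. For both against Ptbp1 siRNA the count became 1 (Nefl). At that limit 847 of 13239, 2296 of 13304 and 709 of 13299 tested genes were called, in the order of these pairs. A pseudocount of 0.1 CPM gave 1 called member (Nefl) in the last pair. Over all genes, the main counts of 97, 504 and 58 became 295, 882 and 250 with that pseudocount and 30, 223 and 10 with 5 CPM. They were 9, 58 and 2 at 3-fold, and 48, 250 and 26 with the deposited RPKM. A filter at 5 CPM gave 38 in the last pair. With the deposited RPKM, the limit and the pseudocount of 1 were applied to RPKM in place of CPM. The members' median for both siRNAs against control was then 0.44. Nefl was left out of it, at 0.232 RPKM after both siRNAs and 0.393 in the control, below that limit. Composition shares were equal as printed with the deposited RPKM and with summed rows, but neither could change them. RPKM divides the reads per length of a library by a constant, and each of the 7 symbols had 1 cluster. Leaving mitochondrial clusters out of the library sizes, an alternative chosen after seeing the data, moved no count by over 1.5 times and no difference of the 7 genes beyond its counting interval. Depth limits Nefl and Nefm most: a limit of 3 reads is 0.207 CPM after both siRNAs, 0.174 after Ptbp1 siRNA and 0.194 in the control.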

Other observations

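Krt8 had 180 reads after both siRNAs, 339 after Ptbp1 siRNA and 364 in the control, while Krt18, whose product is its obligate filament partner in simple epithelia, had 1, 2 and 2 reads in those libraries. Of the 32-base exon windows 66.6% recur elsewhere in the genome for Krt8 and 11.2% for Krt18. Whether the Krt8 reads came from the gene or from its copies was not tested. Nefh, with 4263 reads after both siRNAs, 3978 after Ptbp1 siRNA and 2394 in the control, stood beside its filament partner Nefl with 10, 31 and 19 in those libraries, where 0.0614% of windows of Nefl recur.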
